A study of Homo sapiens with 9 samples.

Results

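The 39 genes described here encode the machinery that carries newly made proteins into the endoplasmic reticulum (ER), attaches their N-linked sugars and loads them into vesicles for the Golgi. They were chosen by name, with earlier results of these data known. Each symbol was matched through GENCODE release 29 to its Ensembl identifier in the count table. All 39 were found among 60675 rows, and 38 of them had enough counts to be tested. By role they fall into 8 genes of the signal recognition particle (SRP) and its receptor, 9 of the translocon and the translocon-associated protein (TRAP) complex, 5 of the signal peptidase complex, 7 of the oligosaccharyltransferase (OST) and 10 of the COPII coat.

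RNA was measured in HCC827, an established human lung adenocarcinoma line with an activating EGFR mutation, in a study whose title concerns loss of CBX5 and resistance to EGFR inhibitors. CBX5 encodes a heterochromatin protein that binds methylated histone tails. Cells stably expressed short hairpin G1 against CBX5 (3 libraries), short hairpin G7 against CBX5 (3 libraries) or the non-silencing hairpin NS, called the control below (3 libraries), so that every group carried a hairpin and no group was untransduced. All groups grew in DMEM with serum, and no drug treatment is named for these samples. The design text calls the libraries of a group biological replicates. The labels do not say whether they came from separate transductions or clones. The p-values below therefore set differences between groups against the spread between these libraries, which may be partly technical.

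As background, SRP is a ribonucleoprotein that binds the signal peptide as it leaves the ribosome, slows elongation and docks on its receptor at the ER membrane. The chain then passes through the SEC61 channel, signal peptidase cuts off the signal peptide, and OST moves a preassembled sugar tree from a lipid carrier onto asparagines of the chain. Cargo leaves the ER when the GTPase SAR1 recruits the inner coat of SEC23 and SEC24 and the outer coat of SEC13 and SEC31. Secreted proteins and membrane glycoproteins, EGFR among them, use this route.

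Libraries held between 12701561 and 22372353 counts, and the 39 genes together took 0.454% to 0.527% of them. Levels are given in CPM, counts relative to library size, scaled with TMM, a correction for differences in library composition. Differences are log2 fold changes with their standard errors (SE) from edgeR's quasi-likelihood test, and a gene was called higher or lower at a Benjamini-Hochberg adjusted p under 0.05 over 13264 genes. The targeted gene CBX5 stood at 142 ± 0.595 CPM with G1, at 203 ± 1.54 CPM with G7 and at 369 ± 8.11 CPM in control cells (SD, n = 3 each), a log2 change of -1.38 with G1 and -0.86 with G7. All 9 epithelial markers examined were detected, with sums of 14983 to 15221 CPM with G1, 12816 to 13472 CPM with G7 and 10946 to 11893 CPM in control cells. Immune markers summed to at most 7.32 CPM in any library, with CD68 and MS4A1 at 0. Of the 2189 exonic bases of CD68, 1789 overlap a gene on its strand, so its 0 is uncertain. Fibroblast and endothelial markers summed to 86.6 to 92.7 CPM with G1, 99.7 to 106 CPM with G7 and 98.5 to 107 CPM in control cells. Replicate 3 of G7 stood apart from replicates 1 and 2 of G7 and had the highest share of mitochondrially encoded counts, 19.8% against a lowest share of 13.4% over the 9 libraries. Because these are bulk samples, less RNA per cell and fewer cells that express a gene cannot be told apart.

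With G1, 9 of the 38 tested genes were higher than in control cells, 14 were lower and 15 were not called. The 9 and 14 calls are 23.7% and 36.8% of the genes tested, and 60.5% were called in either direction. Of all 13264 genes, 59.1% were called in that comparison, 30.4% higher and 28.7% lower, so the share called among the 38 lay near the background. With G7, 2 of the 38 were higher and 13 were lower, which is 5.26% and 34.2% of them and 39.5% together. Of all genes, 22.7% were called with G7, 13.1% higher and 9.64% lower. Without replicate 3 of G7, the counts with G7 were 2 higher and 12 lower.

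The differences were small. Log2 changes of the 38 ran from -0.73 for SEC24D to 0.45 for SRP14 with G1 and from -0.49 for SEC11C to 0.25 for SRP14 with G7. The median log2 change was -0.020 with G1, beside -0.011 for all genes tested, and -0.049 with G7, beside 0.0093 for all genes. Both comparisons use the same control libraries, so their values are set side by side here and their likeness is not a result. The share of all genes called alike with both hairpins was not computed, so the counts that follow are description only. In the 2 comparisons together, 12 genes were lower with both hairpins (SEC61A1, SEC63, SSR1, SSR3, SPCS2, SPCS3, SEC11C, STT3B, OSTC, SEC31A, SEC24A and SEC24D) and 2 were higher with both (SRP14 and DAD1). A further 7 genes were called higher with G1 and not called with G7, 2 were called lower with G1 and not with G7, 1 (RPN1) was called lower with G7 and not with G1, and 14 were called with neither. Outside the paralog pairs, genes given in full were picked partly because their libraries with at least 1 hairpin did not overlap the control libraries. That lack of overlap, where stated below, follows from the choice and adds no support. Its share over all genes was not computed.

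**Figure D1:**
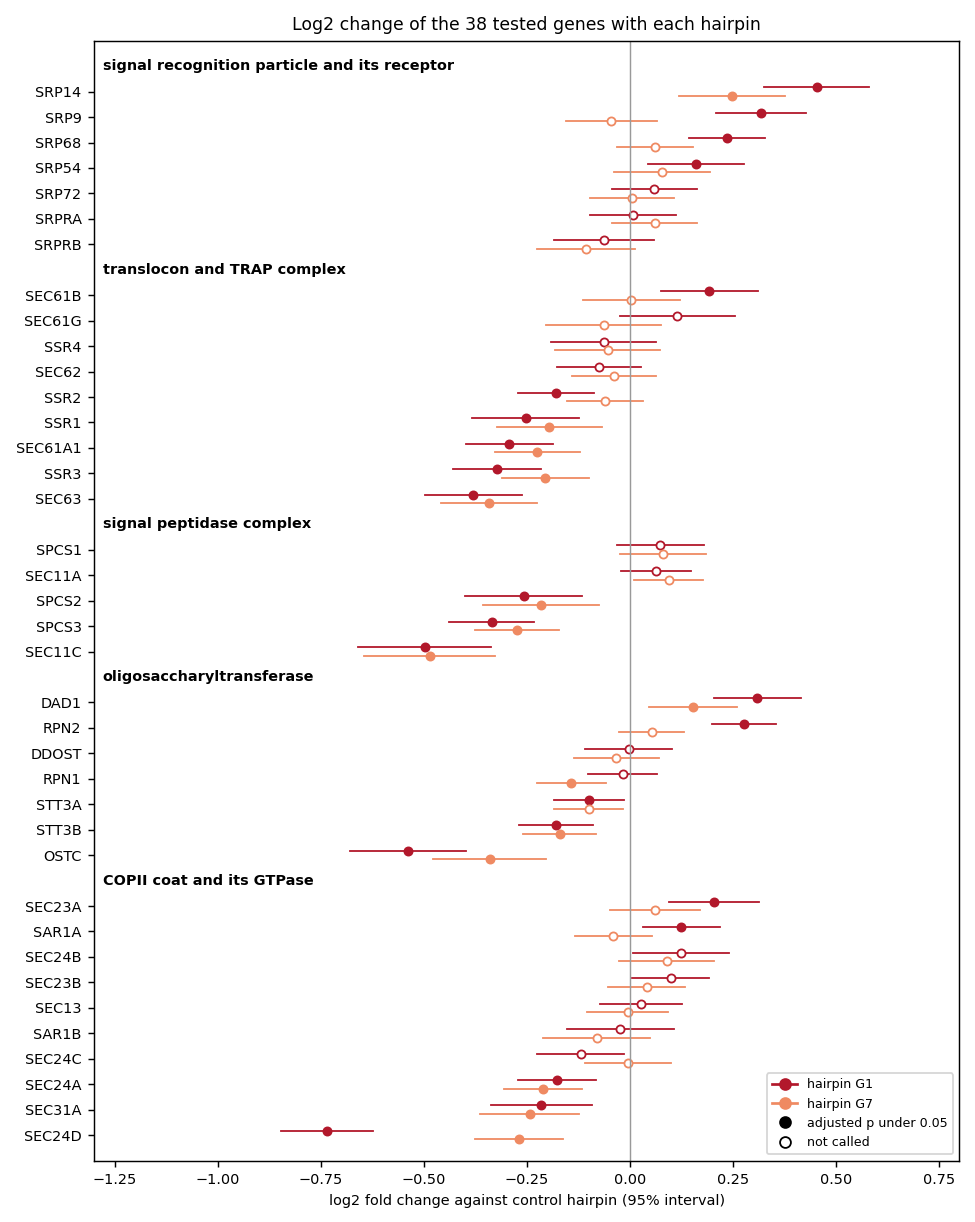
Log2 fold change of the 38 tested genes with hairpin G1 (dark red) and hairpin G7 (orange) against the control hairpin, with lines for the 95% interval and filled points for an adjusted p under 0.05, grouped by role. The points run from -0.73 (SEC24D with G1) to 0.45 (SRP14 with G1), and in the SRP group no filled point lies left of zero.

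Several of these genes are known targets of the unfolded protein response (UPR), in which XBP1 and ATF6 bind short promoter elements. The promoter windows run from 250 bases before to 50 bases after the RefSeq transcription start on GRCh38.p14. They were searched on both strands for TGACGTGG, the core of 1 such element, the UPR element. This string was chosen after the promoters of the members had been read, so the shares below describe these windows and test nothing. RefSeq promoter entries were found for 34 of the 39 genes, with 45 windows in all; RPN1, SEC24D, SPCS1, SRPRA and STT3B had none. The string was present in 6 of the 45 windows (13.3%), against 0.729% of all 35116 windows and 0.812% of the 14163 windows of tested genes. The windows belong to SEC23A, SEC24A, SEC62, SRP19, SSR3 and SSR4. SSR3 has 3 windows and SSR4 has 2, and in each gene only 1 holds the string. The RefSeq starts of those windows lie 1059 (SSR3) and 1152 (SSR4) bases from the GENCODE gene start. The levels of the 6 genes did not move as 1 group: SEC24A and SSR3 were lower with both hairpins, SEC23A was higher with G1, SEC62 and SSR4 were called with neither, and SRP19 was listed at 0. The windows of SEC24A, SEC23A and SEC62 are printed because they hold the same string in genes with those 3 different outcomes, with the string in capitals (in the opposite orientation, CCACGTCA, in SEC62). The SEC24A window lies at chr5:134648535-134648834 on the plus strand, the SEC23A window at chr14:39103186-39103485 on the minus strand and the SEC62 window at chr3:169966557-169966856 on the plus strand, each written 5′ to 3′ in the gene's direction.
SEC24A: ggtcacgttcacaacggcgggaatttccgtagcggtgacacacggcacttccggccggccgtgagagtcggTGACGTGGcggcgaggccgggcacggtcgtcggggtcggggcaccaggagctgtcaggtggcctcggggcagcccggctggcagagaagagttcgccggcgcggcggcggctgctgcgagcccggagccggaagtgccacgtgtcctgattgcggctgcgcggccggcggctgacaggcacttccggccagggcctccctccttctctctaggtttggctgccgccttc
SEC23A: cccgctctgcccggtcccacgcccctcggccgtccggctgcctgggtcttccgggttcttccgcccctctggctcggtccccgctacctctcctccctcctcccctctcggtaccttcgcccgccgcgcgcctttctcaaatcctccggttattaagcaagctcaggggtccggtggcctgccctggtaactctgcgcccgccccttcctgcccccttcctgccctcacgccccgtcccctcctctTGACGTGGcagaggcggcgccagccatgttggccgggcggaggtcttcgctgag
SEC62: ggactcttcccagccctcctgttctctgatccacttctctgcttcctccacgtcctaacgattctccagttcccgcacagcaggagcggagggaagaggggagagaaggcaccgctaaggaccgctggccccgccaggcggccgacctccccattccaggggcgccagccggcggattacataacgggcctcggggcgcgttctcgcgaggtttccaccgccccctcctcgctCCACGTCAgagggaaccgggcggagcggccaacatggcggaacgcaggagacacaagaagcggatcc

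Counted with the first transcribed base as 0, the string spans bases -179 to -172 in SEC24A, -4 to 3 in SEC23A and -17 to -10 in SEC62. The RefSeq start of SEC23A lies 6411 bases inside the GENCODE gene, so its window is that of a downstream start. The SEC24A window lies inside the GENCODE bounds of SAR1B, which runs on the opposite strand. In all, 11 strings were searched, chosen after the promoters of the members had been read. ACGTG, which lies inside TGACGTGG, was in 31 of the 45 windows (68.9%), in 21.4% of all windows and in 25.1% of the windows of tested genes. TGACGTG, also inside it, was in 20.0%, 1.97% and 2.39% of these windows, and TGACGT in 31.1%, 7.98% and 10.1%. CCACG, which the opposite strand of TGACGTGG contains, was in 75.6% of the members' windows, 38.1% of all windows and 47.4% of those of tested genes, and CCAAT in 42.2%, 34.6% and 34.1%. GCGTCA was in 11.1% of the members' windows, above the 9.14% of all windows and below the 12.8% of those of tested genes. The ER stress elements (CCAAT, 9 bases of any kind, then CCACG, and ATTGG, 1 base, then CCACG), GATGACGTG and TGATGCAAT were not among the letters of the 45 windows, and were in 0.0769%, 0.0541%, 0.137% and 0.236% of all windows and 0.113%, 0.0988%, 0.233% and 0.148% of those of tested genes. A match is a description of letters and not of binding.

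Of the 7 SRP and receptor genes tested, 4 were higher and none lower with G1, and 1 was higher and none lower with G7. The share called with G1 was 57.1%, beside 59.1% of all genes (30.4% higher), and with G7 14.3%, beside 22.7% of all genes (13.1% higher). The genes that were higher with G1 were SRP14, SRP9, SRP68 and SRP54. The group's summed level was 1064 ± 11.97 CPM with G1, 936 ± 9.42 CPM with G7 and 920 ± 30.5 CPM in control cells (SD, n = 3 each). The eighth gene, SRP19, whose product helps SRP54 onto the RNA, is listed at 0 counts in all 9 libraries. Of its 10517 exonic bases, 1909 are shared with other genes on its strand, and reads of such stretches may be left out by the counting. Its level is thus uncertain, and why it is listed at 0 was not tested. A count of 0 allows up to 3 counts, or 0.139 to 0.227 CPM, for counting error alone.

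SRP14 and SRP9 form the pair that slows elongation while the ribosome docks. SRP14 stood at 129, 124 and 142 CPM with G1, at 109, 106 and 125 CPM with G7 and at 93.6, 98.4 and 95.6 CPM in control cells. Every library of either hairpin was above every control library. SRP14 had a log2 change of 0.45 ± 0.061 with G1 (SE, adjusted p = 3.89e-06, edgeR) and 0.25 ± 0.061 with G7 (adjusted p = 0.00659). SRP14 has 4 annotated pseudogenes, so reads may be shared with near copies. Its partner SRP9 stood at 389, 404 and 373 CPM with G1, at 309.7, 315 and 283 CPM with G7 and at 332, 312 and 292 CPM in control cells. The G1 libraries of SRP9 lay above all others, whereas its G7 and control libraries overlapped. Its log2 change was 0.32 ± 0.052 with G1 (adjusted p = 4.1e-05, edgeR) and -0.045 with G7 (95% interval -0.16 to 0.065). With G7, SRP14 was thus called higher and SRP9 was not called.

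SRP68 and SRP72 bind each other in the part of the particle that holds the signal peptide. SRP68 stood at 101, 106 and 106 CPM with G1, at 94.9, 90.8 and 90.9 CPM with G7 and at 89.5, 87.6 and 88.2 CPM in control cells. SRP68 had a log2 change of 0.24 ± 0.044 with G1 (adjusted p = 0.000157, edgeR), with no overlap between the groups, and 0.061 with G7 (95% interval -0.031 to 0.15). SRP72 was called with neither hairpin (log2 change 0.060 with G1 and 0.005 with G7). SRP54, the GTPase that holds the signal peptide, had a log2 change of 0.16 ± 0.055 with G1 (adjusted p = 0.018, edgeR), and that call was lost without control replicate 1, without control replicate 3, without G1 replicate 2 or with upper quartile scaling (log2 change as low as 0.074, adjusted p up to 0.251). The receptor subunits SRPRA and SRPRB, which receive the particle at the membrane, were called with neither hairpin. SRPRA averaged 79.6 ± 0.383 CPM with G1, 82.5 ± 4.83 CPM with G7 and 79.2 ± 2.08 CPM in control cells, and SRPRB averaged 71.5 ± 4.53, 69.6 ± 3.69 and 74.9 ± 3.61 CPM (SD, n = 3 each).

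Of the 9 translocon and TRAP genes, 5 were lower and 1 higher with G1, and 4 were lower and none higher with G7. The genes called lower were 55.6% with G1 and 44.4% with G7, beside 28.7% and 9.64% of all genes. The group's summed level was 979 ± 21.5 CPM with G1, 997 ± 8.91 CPM with G7 and 1096 ± 26.1 CPM in control cells (SD, n = 3 each). The members lower with both hairpins were SEC61A1, SEC63, SSR1 and SSR3.

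SEC61A1 encodes the subunit that forms the channel itself. It stood at 59.0, 59.1 and 61.2 CPM with G1, at 65.6, 62.8 and 59.6 CPM with G7 and at 71.9, 72.3 and 75.3 CPM in control cells. All 6 hairpin libraries lay below all 3 control libraries. SEC61A1 had a log2 change of -0.29 ± 0.050 with G1 (adjusted p = 6.35e-05, edgeR) and -0.22 ± 0.050 with G7 (adjusted p = 0.00312). The small channel subunits did not follow it. SEC61B stood at 60.8, 70.2 and 63.1 CPM with G1, at 56.5, 58.8 and 55.25 CPM with G7 and at 57.3, 55.8 and 56.9 CPM in control cells, so that the G1 libraries were the highest and the G7 libraries overlapped those of control cells. Its log2 change with G1 was 0.19 ± 0.056 (adjusted p = 0.00677, edgeR). Without G1 replicate 2, the highest library, that call was lost, as it was with upper quartile scaling (log2 change down to 0.11, adjusted p up to 0.109). SEC61G was called with neither hairpin (log2 change 0.11 with G1 and -0.064 with G7).

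SEC63 encodes the membrane J-domain protein that brings the chaperone BiP to the channel. It stood at 117, 113 and 121 CPM with G1, at 112, 118 and 131 CPM with G7 and at 153, 159 and 145 CPM in control cells. Every hairpin library lay below every control library. Its log2 changes of -0.38 ± 0.056 with G1 (adjusted p = 1.19e-05, edgeR) and -0.34 ± 0.056 with G7 (adjusted p = 0.000229) were the lowest of the translocon group. SEC62, its partner in the import of short precursors, was called with neither hairpin, with log2 changes of -0.076 with G1 (95% interval -0.18 to 0.026) and -0.039 with G7 (95% interval -0.14 to 0.062).

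TRAP sits beside the channel, helps some signal peptides to insert, and has 4 subunits. SSR3, the gamma subunit, stood at 174, 183 and 166 CPM with G1, at 193, 198 and 176 CPM with G7 and at 218, 226 and 210.1 CPM in control cells. The control libraries lay above all others, and the G1 and G7 libraries overlapped. SSR3 had a log2 change of -0.32 ± 0.051 with G1 (adjusted p = 2.56e-05, edgeR) and -0.21 ± 0.050 with G7 (adjusted p = 0.00654). SSR1, the alpha subunit, was lower by a log2 change of -0.25 ± 0.062 with G1 and -0.20 ± 0.061 with G7 (adjusted p = 0.00182 and 0.0267, edgeR). The G7 call of SSR1 was lost without control replicate 1 or 2 and without G7 replicate 1 or 2 (adjusted p up to 0.124). SSR2, the beta subunit, was called lower with G1 (log2 change -0.18 ± 0.044, adjusted p = 0.00187, edgeR) and not with G7 (-0.060). SSR4, the delta subunit, was called with neither (-0.064 with G1 and -0.053 with G7).

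Among the 5 signal peptidase genes, 3 were lower with each hairpin (SEC11C, SPCS3 and SPCS2) and none higher. Those 3 are 60% of the group, beside 28.7% of all genes lower and 59.1% called with G1, and 9.64% lower and 22.7% called with G7. Both comparisons use the same control libraries, and the share of all genes called alike with both was not computed. That the same 3 were called with both is thus description only. The group's summed level was 511 ± 14.7 CPM with G1, 526 ± 14.3 CPM with G7 and 574 ± 23.2 CPM in control cells (SD, n = 3 each). No gene of this group was called between G1 and G7.

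SEC11A and SEC11C encode alternative catalytic subunits. SEC11C, the less abundant, stood at 18.3, 17.7 and 19.9 CPM with G1, at 18.0, 17.6 and 20.5 CPM with G7 and at 25.5, 27.1 and 26.1 CPM in control cells. All 6 hairpin libraries were below the lowest control library. This gave a log2 change of -0.50 ± 0.077 with G1 (adjusted p = 2.08e-05, edgeR) and -0.49 ± 0.076 with G7 (adjusted p = 0.000155). The G1 to G7 difference had a 95% interval of -0.17 to 0.15 on the log2 scale. SEC11A stood at 164.5, 171 and 168 CPM with G1, at 169, 171 and 174.5 CPM with G7 and at 165, 159 and 158 CPM in control cells. It was not called with either hairpin, with log2 changes of 0.063 (95% interval -0.022 to 0.15) with G1 and 0.094 (95% interval 0.010 to 0.18) with G7.

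SPCS3, a non-catalytic subunit of the core enzyme, stood at 187, 189 and 176.5 CPM with G1, at 195, 199 and 183 CPM with G7 and at 247, 230.3 and 220.0 CPM in control cells. Every control library exceeded every hairpin library. SPCS3 had a log2 change of -0.34 ± 0.049 with G1 (adjusted p = 1.07e-05, edgeR) and -0.27 ± 0.049 with G7 (adjusted p = 0.000504). SPCS2, an accessory subunit, had a log2 change of -0.26 ± 0.068 with G1 (adjusted p = 0.00317, edgeR) and -0.21 ± 0.067 with G7 (adjusted p = 0.027). The G7 call of SPCS2 was lost without control replicate 1, G7 replicate 1 or G7 replicate 3 (adjusted p up to 0.135), and the gene has 4 annotated pseudogenes. SPCS1, the other accessory subunit, was called with neither (0.074 with G1 and 0.081 with G7), and 3095 of its 5324 exonic bases overlap genes on the opposite strand.

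**Figure D2:**
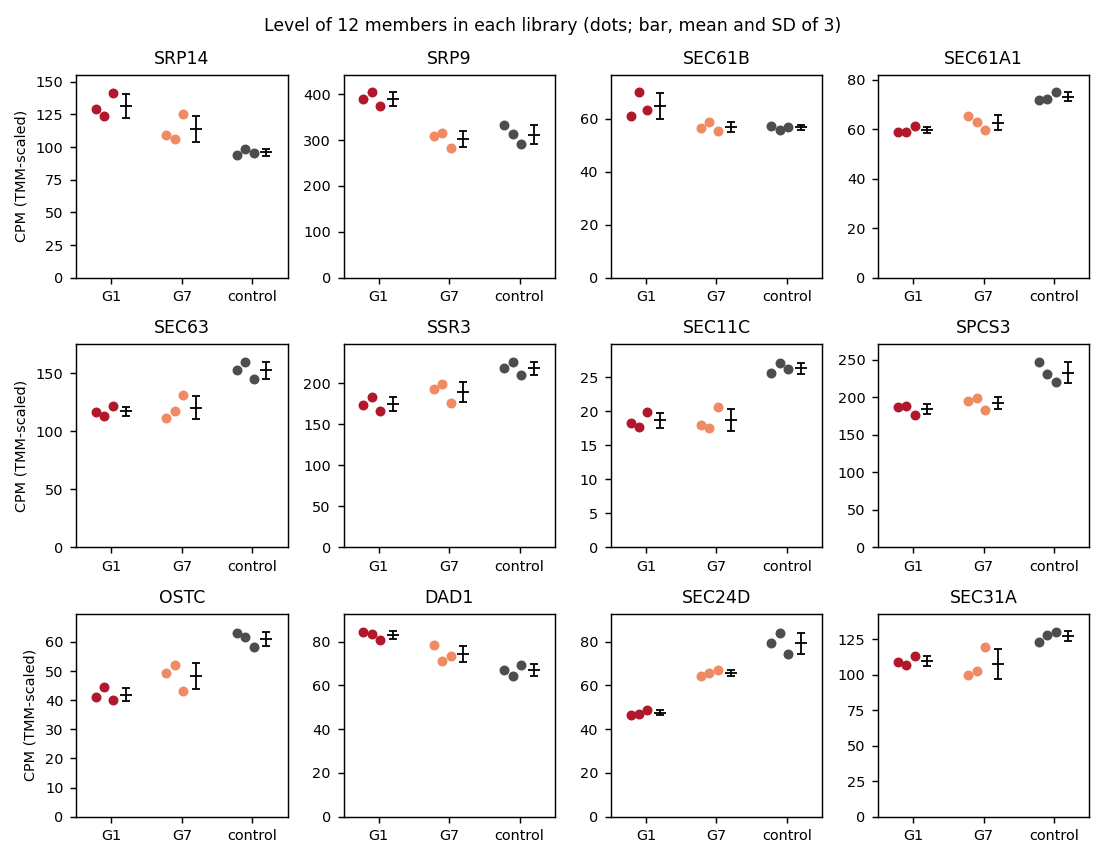
TMM-scaled CPM of 12 genes in each library (dots) for hairpin G1, hairpin G7 and the control hairpin, with the mean and SD of 3 libraries (bars) and every axis starting at 0. SRP14, SRP9, SEC61B and DAD1 are highest with G1, and SEC61A1, SEC63, SSR3, SEC11C, SPCS3, OSTC, SEC24D and SEC31A are highest in control cells.

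Of the 7 OST genes, 2 were higher and 3 lower with G1, and 1 was higher and 3 lower with G7. The shares were 28.6% higher and 42.9% lower with G1, beside 30.4% and 28.7% of all genes, and 14.3% higher and 42.9% lower with G7, beside 13.1% and 9.64%. The summed level was 1535 ± 13.4 CPM with G1, 1442 ± 16.2 CPM with G7 and 1520.3 ± 10.3 CPM in control cells (SD, n = 3 each). With G1, DAD1 and RPN2 were higher, and OSTC, STT3B and STT3A were lower.

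OSTC encodes the adaptor that ties the STT3A form of the enzyme to the translocon. It stood at 41.3, 44.4 and 40.0 CPM with G1, at 49.3, 52.2 and 43.3 CPM with G7 and at 63.0, 61.6 and 58.4 CPM in control cells. Each hairpin library was below each control library, and G1 replicate 2 overlapped G7 replicate 3. OSTC had a log2 change of -0.54 ± 0.067 with G1 (adjusted p = 1.53e-06, edgeR) and -0.34 ± 0.065 with G7 (adjusted p = 0.000997). OSTC has 6 annotated pseudogenes, so its counts may miss or include reads of copies.

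STT3A and STT3B encode the alternative catalytic subunits, which act during and after translocation. STT3B stood at 253, 258 and 260.0 CPM with G1, at 255, 271 and 250.2 CPM with G7 and at 299, 294 and 280 CPM in control cells. Its control libraries lay above all hairpin libraries, and its log2 change was -0.18 ± 0.043 with G1 (adjusted p = 0.0015, edgeR) and -0.17 ± 0.043 with G7 (adjusted p = 0.00743). STT3A stood at 185, 183 and 187 CPM with G1, at 182, 184 and 188 CPM with G7 and at 203, 199 and 192 CPM in control cells. STT3A had a log2 change of -0.099 ± 0.040 with G1 (adjusted p = 0.0417, edgeR) and -0.10 ± 0.040 with G7 (adjusted p = 0.0798, not called), with the control libraries again above the rest. The G1 call of STT3A was lost under 9 of 16 alternatives, among them DESeq2 and leaving out any 1 G1 library (adjusted p up to 0.302).

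DAD1, RPN1, RPN2 and DDOST belong to both forms of the enzyme. DAD1, a small subunit needed for its stability, stood at 84.6, 83.6 and 80.9 CPM with G1, at 78.35, 71.3 and 73.6 CPM with G7 and at 67.0, 64.2 and 69.6 CPM in control cells. The 3 groups did not overlap. The log2 change was 0.31 ± 0.051 with G1 (adjusted p = 3.8e-05, edgeR) and 0.15 ± 0.051 with G7 (adjusted p = 0.0352), and the G7 call was lost under 9 of 16 alternatives, DESeq2 among them (adjusted p up to 0.169). RPN2, a large membrane subunit, stood at 396, 407 and 397 CPM with G1, at 343, 342 and 342 CPM with G7 and at 327, 333 and 330.2 CPM in control cells. The log2 change of RPN2 was 0.28 ± 0.037 with G1 (adjusted p = 4.22e-06, edgeR) and 0.053 with G7 (95% interval -0.025 to 0.13), with no overlap between the G1 libraries and the others. RPN1, which presents some substrates to the enzyme, stood at 365, 364 and 387 CPM with G1, at 341, 334 and 348 CPM with G7 and at 378, 380 and 372 CPM in control cells. RPN1 was called lower with G7 (log2 change -0.14 ± 0.040, adjusted p = 0.0158, edgeR) and not with G1 (-0.018, 95% interval -0.10 to 0.067). Without control replicate 1 or 2 or G7 replicate 2 the G7 call of RPN1 was lost (adjusted p up to 0.0759). DDOST, which stabilises the catalytic core, was called with neither (-0.0032 with G1 and -0.033 with G7).

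Of the 10 COPII genes, 2 were higher and 3 lower with G1, and none was higher and 3 lower with G7. The shares were 20% higher and 30% lower with G1, beside 30.4% and 28.7% of all genes, and 30% lower with G7, beside 9.64%. SEC24A, SEC24D and SEC31A were lower with both hairpins, and SEC23A and SAR1A were higher with G1. The summed level was 865 ± 7.01 CPM with G1, 853 ± 3.52 CPM with G7 and 895 ± 8.10 CPM in control cells (SD, n = 3 each).

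SEC24 proteins are the cargo adaptors of the coat, and the 4 paralogs differ in the export signals they bind. SEC24D stood at 46.7, 47.1 and 49.0 CPM with G1, at 64.4, 65.6 and 66.9 CPM with G7 and at 79.4, 83.9 and 74.3 CPM in control cells. The 3 groups did not overlap, and G7 lay between G1 and control. The log2 change was -0.73 ± 0.053 with G1 (adjusted p = 1.24e-09, edgeR), or 0.601 times the control, and -0.27 ± 0.051 with G7 (adjusted p = 0.000906). SEC24A stood at 75.7, 78.8 and 76.8 CPM with G1, at 74.5, 76.1 and 75.5 CPM with G7 and at 84.4, 90.2 and 87.0 CPM in control cells. All 6 hairpin libraries of SEC24A were below the control libraries, with log2 changes of -0.18 ± 0.045 with G1 (adjusted p = 0.0025, edgeR) and -0.21 ± 0.045 with G7 (adjusted p = 0.00228). SEC24B stood at 64.25, 56.9 and 61.0 CPM with G1, at 58.2, 58.2 and 61.2 CPM with G7 and at 54.0, 58.0 and 55.0 CPM in control cells. SEC24B was not called, and passed with G1 under 4 of 16 alternatives (log2 change 0.12, 95% interval 0.0084 to 0.24, with G1 and 0.089, 95% interval -0.026 to 0.20, with G7). SEC24C stood at 82.7, 76.8 and 80.15 CPM with G1, at 89.3, 86.55 and 83.5 CPM with G7 and at 81.7, 88.9 and 89.4 CPM in control cells. It was also not called, with a log2 change of -0.12 (95% interval -0.22 to -0.013, adjusted p = 0.0501, edgeR) with G1 that passed under 5 of 16 alternatives, and -0.0052 with G7. Of the exonic bases of SEC24C, 2293 of 5341 overlap a gene on the opposite strand.

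SEC24A and SAR1B lie head to head on chromosome 5, at 134648789 to 134727823 on the plus strand and 134601144 to 134649271 on the minus strand, and 385 bases of their exons overlap. SAR1B, 1 of 2 copies of the GTPase that starts coat assembly, stood at 73.4, 73.0 and 71.5 CPM with G1, at 72.1, 76.1 and 61.7 CPM with G7 and at 75.6, 73.8 and 72.2 CPM in control cells. SAR1B was called with neither hairpin (log2 change -0.023, 95% interval -0.15 to 0.11, with G1 and -0.081, 95% interval -0.21 to 0.049, with G7), whereas its neighbour SEC24A was lower with both. SAR1A stood at 128, 137 and 130.1 CPM with G1, at 116, 119 and 118 CPM with G7 and at 125, 121 and 117 CPM in control cells. Its log2 change was 0.12 ± 0.044 with G1 (adjusted p = 0.0218, edgeR) and -0.040 with G7. The G1 call of SAR1A was lost without control replicate 3, without G1 replicate 2 or with upper quartile scaling (log2 change down to 0.038, adjusted p up to 0.454).

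SEC23 proteins activate the GTPase and bind SEC24. SEC23A stood at 85.6, 88.7 and 87.9 CPM with G1, at 78.1, 85.2 and 74.8 CPM with G7 and at 77.2, 77.4 and 73.25 CPM in control cells. The G1 libraries were the highest, and the G7 libraries overlapped those of control cells. Its log2 change was 0.20 ± 0.052 with G1 (adjusted p = 0.00244, edgeR), which missed the threshold with upper quartile scaling (log2 change 0.12, adjusted p = 0.0528), and 0.062 with G7. SEC23B stood at 119.7, 116 and 124 CPM with G1, at 117, 113 and 115 CPM with G7 and at 116, 108 and 112 CPM in control cells, and was called with neither, passing with G1 under 4 of 16 alternatives (log2 change 0.099, 95% interval 0.0057 to 0.19, with G1 and 0.041, 95% interval -0.052 to 0.13, with G7).

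SEC31A and SEC13 build the outer cage. SEC31A stood at 109, 107 and 113 CPM with G1, at 99.99, 102 and 119.5 CPM with G7 and at 123, 128 and 130.1 CPM in control cells. Each hairpin library was below each control library, with replicate 3 of G7 the closest to them. SEC31A had a log2 change of -0.21 ± 0.058 with G1 (adjusted p = 0.00385, edgeR) and -0.24 ± 0.058 with G7 (adjusted p = 0.00512). SEC13, which also belongs to the nuclear pore, was called with neither (0.027 with G1 and -0.0054 with G7).

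**Figure D3:**
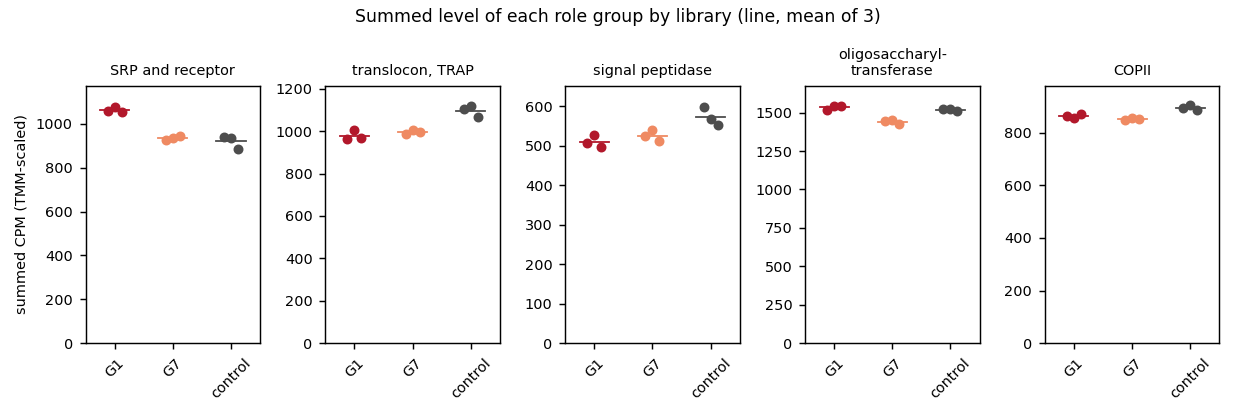
Summed TMM-scaled CPM of each role group in every library (dots; line, mean of 3) for hairpin G1, hairpin G7 and the control hairpin, with axes starting at 0. The SRP sum is highest with G1 (1064 CPM), and the translocon, signal peptidase and COPII sums are highest in control cells (1096, 574 and 895 CPM).

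Ratios of paralogs within a library do not depend on its scaling, so the 6 paralog pairs were also compared as log2 ratios of CPM per kb of exon. The SEC11A to SEC11C ratio was 2.82 ± 0.097 with G1, 2.85 ± 0.10 with G7 and 2.26 ± 0.072 in control cells (SD, n = 3 each). The libraries of either hairpin lay above those of the control, with differences of 0.56 and 0.59 (exact permutation test, two-sided, p = 0.1 each). The SEC24C to SEC24D ratio was 1.64 ± 0.067 with G1, 1.29 ± 0.076 with G7 and 1.02 ± 0.12 in control cells. The 3 groups again did not overlap, with differences of 0.62 with G1 and 0.27 with G7 (exact permutation p = 0.1 each). The SEC24A to SEC24B ratio was -0.12 ± 0.12 with G1, -0.12 ± 0.042 with G7 and 0.18 ± 0.013 in control cells, a difference of -0.30 with either hairpin (exact permutation p = 0.1 each).

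The other pairs moved less. The SAR1A to SAR1B ratio differed from control by 0.15 with G1 (exact permutation p = 0.1) and 0.044 with G7 (p = 1.0), and the STT3A to STT3B ratio by 0.080 with G1 (p = 0.1) and 0.070 with G7 (p = 0.3). The SEC23A to SEC23B ratio overlapped between all groups, with differences of 0.10 with G1 (exact permutation p = 0.3) and 0.021 with G7 (p = 0.8). With 3 libraries against 3, an exact permutation p of 0.1 is the smallest possible, and the 18 comparisons of the family bring it to 0.2 after Benjamini-Hochberg adjustment, so that no ratio passes a threshold of 0.05.

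**Figure D4:**
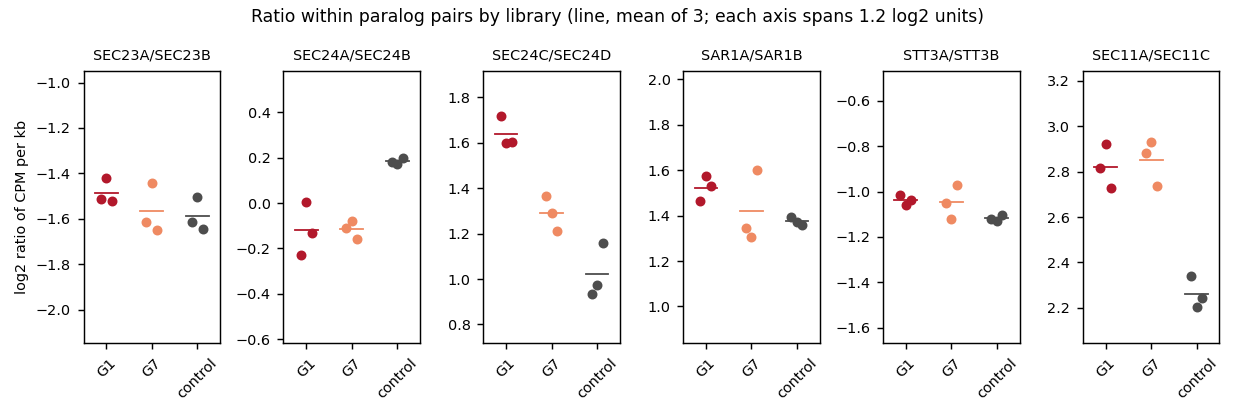
Log2 ratio of CPM per kb within 6 paralog pairs in each library (dots; line, mean of 3) for hairpin G1, hairpin G7 and the control hairpin, with the same span of 1.2 log2 units on every axis. In the SEC11A/SEC11C and SEC24C/SEC24D panels the hairpin libraries lie above those of the control, and for SEC24A/SEC24B they lie under those of the control.

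Per kb of exon, the levels of the tested genes spanned a wide range. In control cells SRP9 was the highest at 181 CPM per kb, followed by RPN2 (117), RPN1 (94.3), DAD1 (82.8) and DDOST (72.3), and SSR1 (5.19), SEC11C (5.82), SAR1B (6.74) and SEC24D (7.99) were the lowest. With G1 the highest were SRP9 (225), RPN2 (142) and DAD1 (103), and with G7 SRP9 (175), RPN2 (122) and DAD1 (92.1). These levels use the summed length of all annotated exons, which overstates the length of genes with long alternative ends, so the order is approximate.

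The hairpins themselves differed in these genes. Set against G7, 10 of the 38 genes were higher with G1 and 3 were lower, or 26.3% and 7.89% of them and 34.2% together. Of all genes tested, 44.9% were called between the hairpins, 23.3% higher and 21.6% lower with G1. The median log2 difference of the 38 was 0.029, beside -0.014 for all genes. Without replicate 3 of G7, 9 were higher and 4 lower. The members higher with G1 than with G7 were SRP9, SRP14, SRP68, SEC61B, SEC61G, RPN1, RPN2, DAD1, SEC23A and SAR1A, and those lower were SEC24D, OSTC and SSR2.

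SRP9 had the greatest rise of the 38 between the hairpins (log2 difference 0.36 ± 0.052, adjusted p = 1.68e-05, edgeR), followed by RPN2 (0.22 ± 0.037, adjusted p = 8.11e-05). SEC24D had the lowest difference, -0.46 ± 0.053 (adjusted p = 1.14e-06, edgeR). SRP68 (0.17, adjusted p = 0.00295) and SAR1A (0.16, adjusted p = 0.00494) were the other genes whose calls held in every alternative. The other 8 of the 13 calls were lost under at least 1 alternative. SRP14 (0.21, adjusted p = 0.00841) was lost without G1 replicate 3, SEC61B (0.19, adjusted p = 0.00904) without G1 replicate 2, and DAD1 (0.16, adjusted p = 0.0146) without G7 replicate 2, each also with upper quartile scaling. SEC61G (0.18), RPN1 (0.12), SEC23A (0.14), SSR2 (-0.12) and OSTC (-0.20) had adjusted p between 0.0169 and 0.0335 and were each lost when 1 of several hairpin libraries was left out. The SEC11C, SEC63 and STT3B differences between G1 and G7 were not called, at -0.012 (95% interval -0.17 to 0.15), -0.038 (95% interval -0.16 to 0.079) and -0.0084 (95% interval -0.098 to 0.081).

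Beyond the 39 genes, 130 others were listed by name in 10 groups, all were matched and 117 were tested. Besides the route itself, the groups cover the COPI coat, other insertion routes and transcription factors, so the totals are not of the route alone. With G1, 29 were higher (24.8%) and 44 lower (37.6%), or 62.4% called. The counts with G7 were 11 higher (9.4%) and 26 lower (22.2%), or 31.6% called. Of all genes tested, 59.1% were called with G1 (30.4% higher, 28.7% lower) and 22.7% with G7 (13.1% higher, 9.64% lower). Between the hairpins, 17 of the 117 were higher and 25 lower with G1 (35.9% called, beside 44.9% of all genes). A further 11 of the 130, among them KDELR2, ALG3, DPM2 and EMC6, are listed at 0 in every library although growing cells generally use them, so a 0 in this table need not mean an absent transcript. The genes named below are among the 3 of their group with the smallest p with G1, but not all of those are named. Left out are MLEC, UGGT2, TRAPPC3 and those of the COPI coat and the ER membrane protein complex.

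The group of other translocon factors, which includes chaperones and BiP partners of the ER, went both ways. HYOU1, an ER chaperone that exchanges nucleotide on BiP, stood at 103 ± 1.05 CPM with G1, 151 ± 4.84 CPM with G7 and 247 ± 6.51 CPM in control cells (SD, n = 3 each), a log2 change of -1.26 with G1 and -0.71 with G7. DNAJC3, a luminal J-domain partner of BiP, was lower by -1.001 and -0.53. LRRC59, a ribosome-binding protein of the ER membrane, was higher by 0.79 with G1 and 0.24 with G7. In the group of 12, 6 were higher (50%) and 4 lower (33.3%) with G1, beside 30.4% and 28.7% of all genes. The counts with G7 were 2 higher (16.7%) and 4 lower (33.3%), beside 13.1% and 9.64% of all genes.

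Of the other OST subunits, 5 were tested, and 1 was higher and 1 lower with each hairpin (20% each). For this and the next groups, the shares of all genes were 30.4% higher and 28.7% lower with G1, and 13.1% and 9.64% with G7. MAGT1, the oxidoreductase of the STT3B form, had log2 changes of -0.36 with G1 and -0.38 with G7, and OST4, a small subunit, of 0.24 and 0.17. Of 23 genes that assemble the lipid-linked sugar, 4 were higher (17.4%) and 7 lower (30.4%) with G1. None was higher and 4 were lower (17.4%) with G7. In that group ALG10B, a glucosyltransferase, had a log2 change of -0.71 with G1, MPDU1, which is needed to use dolichol-linked mannose, of 0.50, and ALG2, a mannosyltransferase, of -0.33. Of 9 genes of glycan trimming and glycoprotein folding control, 6 were lower (66.7%) and 1 higher (11.1%) with G1. A total of 2 were lower (22.2%) with G7. UGGT1, which puts a glucose back on unfolded glycoproteins, was lower by -0.37 and -0.33, and EDEM1, which sends such proteins to degradation, by -0.43 and -0.21.

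Among 11 genes of COPII assembly and exit sites, 1 was higher (9.09%) and 5 were lower (45.5%) with G1. With G7, 1 was higher (9.09%) and 4 were lower (36.4%). The shares of all genes, for this and the next groups, were 30.4% higher and 28.7% lower with G1, and 13.1% and 9.64% with G7. MIA3, which loads bulky cargo at exit sites, had log2 changes of -0.61 with G1 and -0.19 with G7, and SEC31B, the scarce paralog of SEC31A (1.53 CPM with G1, 2.09 CPM with G7 and 3.28 CPM in control cells), of -1.09 and -0.62. Of 20 ER cargo receptors, 5 were higher (25%) and 11 lower (55%) with G1. The counts with G7 were 2 higher (10%) and 4 lower (20%). LMAN1, a lectin that carries glycoproteins out of the ER, was lower by -0.36 and -0.14, and TMED10, of the p24 family, by -0.32 and -0.15. BCAP31, an ER sorting chaperone, was higher by 0.32 and 0.16. Of 14 COPI coat genes, 3 were higher (21.4%) and 2 lower (14.3%) with G1. In the G7 comparison, 1 was higher and 1 lower (7.14% each).

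Genes of other insertion routes were also listed. Of 9 genes of the ER membrane protein complex, 3 were higher and none lower with G1 (33.3% higher, beside 30.4% of all genes). In the G7 comparison, 1 was higher and 1 lower (11.1% each). Of 6 genes for tail-anchored proteins, 4 were higher and 1 lower with G1 (66.7% higher), and 3 were higher with G7 (50% higher, beside 13.1% of all genes). UBL4A, which passes such proteins on, had log2 changes of 0.50 with G1 and 0.22 with G7, and ASNA1, the ATPase that delivers them, of 0.34 and 0.27. CAMLG, their receptor at the membrane, had -0.44 with G1 and -0.093 with G7, the second not called.

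Of 8 transcription factors known to act on genes of the secretory pathway, 7 were lower and 1 higher with G1, and 5 were lower with G7. Between the hairpins, 7 of the 8 were lower with G1 than with G7. Lower calls were 87.5% of the 8 with G1, 62.5% with G7 and 87.5% between the hairpins, beside 28.7%, 9.64% and 21.6% of all genes. XBP1, a main activator of ER genes in the UPR, stood at 70.6, 71.0 and 66.5 CPM with G1, at 104, 107 and 103 CPM with G7 and at 145, 136 and 133 CPM in control cells, without overlap between the groups. Its log2 change was -0.99 ± 0.048 with G1 (adjusted p = 4.35e-12, edgeR) and -0.40 ± 0.046 with G7 (adjusted p = 7.54e-06). CREB3L2, a factor that induces COPII genes in secretory cells, was lower by -0.73 and -0.41, and ATF4, the factor of the integrated stress response, by -0.55 and -0.19. The median log2 change of the 8 was -0.64 with G1 and -0.23 with G7. These are levels of RNA, and splicing of XBP1 RNA and activity of the proteins were not measured here.

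**Figure D5:**
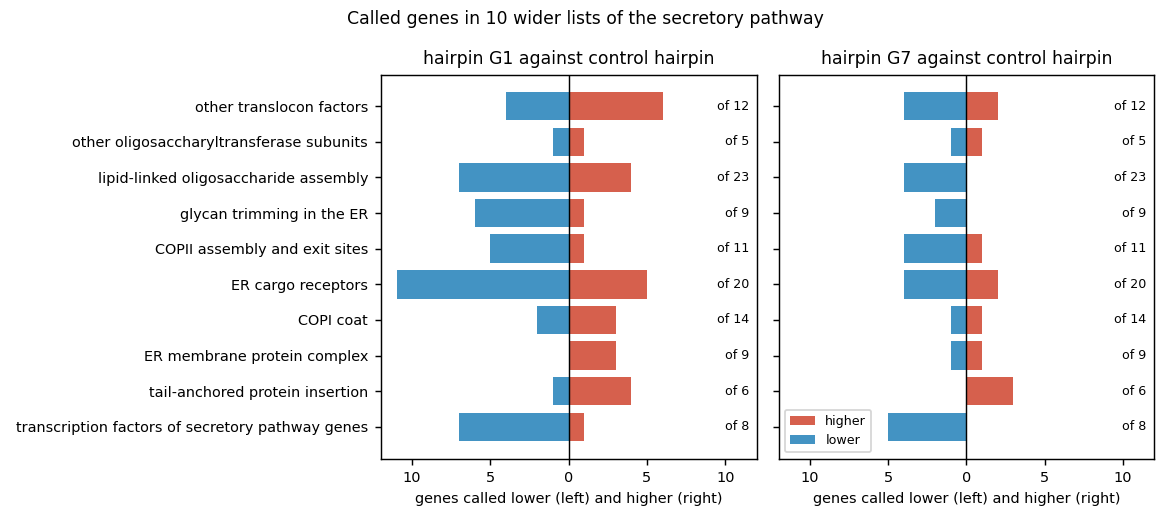
Number of genes called higher (bars to the right) and lower (bars to the left) in the 10 wider groups with hairpin G1 (left panel) and hairpin G7 (right panel) against the control hairpin, with the number tested at the right edge of each panel. For transcription factors of secretory pathway genes, 7 of 8 lie to the left with G1 and 5 of 8 with G7.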

How the data were processed

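Messenger RNA of 9 HCC827 libraries (3 each with hairpin G1, hairpin G7 and the control hairpin) was measured by sequencing after oligo-dT selection, with dUTP marking of the second strand, per the labels' protocols. The deposited table holds raw counts per Ensembl gene, which the authors made without normalization; TopHat2 2.1.0, HTSeq 0.6.0 and the build hg38 (GRCh38) are named in the submitters' processing notes. Neither the gene annotation nor the strand option used for counting was stated there. Selection with oligo-dT samples RNA without a poly-A tail poorly, and a counter that skips ambiguous reads lowers the counts of overlapping genes and near copies: 12 of the 39 genes have annotated pseudogenes, 6 share exonic bases with a gene on the same strand and 19 with one on the opposite strand.

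Symbols and coordinates came from GENCODE release 29, which holds 57055 of the 60675 identifiers in the table. The analysis used R 4.3.3 and edgeR 4.0.16. Of all rows, filterByExpr kept 13264 genes, which were scaled by TMM and tested with glmQLFit and glmQLFTest in 1 fit over all 9 libraries with a mean per group, two-sided, with Benjamini-Hochberg adjustment over all genes tested. The script was tested on simulated data. Library totals of 12701561 to 22372353 counts set the precision; intervals and the limit of 3 counts for a 0 cover counting or model error only, since the reads carry no molecular identifiers. Paralog ratios were compared with exact permutation tests (scipy 1.17.1). Promoter sequences are RefSeq's on GRCh38.p14.

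The 39 genes, the other lists and the tests were chosen with earlier results of these data known, and no list was tested as a set. Genes are given in full where they are among the 3 largest rises or falls of their role group with either hairpin without overlap between libraries, or belong to a paralog pair; other members are given briefly, and SRP54, SSR1, SSR2 and SRPRA, SRPRB among them were added to account for every member. Alternatives were RLE and upper quartile scaling, no filter on low counts, leaving out the 37 mitochondrially encoded genes, a replicate block, fits of only the 2 groups compared, DESeq2 1.42.0, and leaving out each library in turn.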

Additional observations from a re-analysis of the deposited data

How the results depend on the processing

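No call of a member changed direction under any of the 16 alternatives run for it. Of the 23 calls with G1, 18 held in every alternative, as did 11 of 15 with G7 and 5 of 13 between the hairpins. Of the 63 member values that were not called, 15 were called under at least 1 alternative, and 32 turned sign under at least 1. Upper quartile scaling moved the most counts: 5 members instead of 9 were higher and 19 instead of 14 lower with G1, with SRPRB, SEC62, SSR4, RPN1 and SEC24C among the lower, 1 instead of 2 higher with G7, 4 instead of 10 higher and 7 instead of 3 lower with G1 than with G7, and in the wider lists 16 instead of 29 were higher with G1, 7 instead of 11 higher with G7 and 9 instead of 17 higher with G1 than with G7. That scaling moved the median of all genes by -0.087 with G1 and -0.027 with G7, and gave 3066 higher and 4815 lower genes with G1, 1398 and 1603 with G7 and 2346 and 3751 between the hairpins, against 4031 and 3806, 1735 and 1279, and 3092 and 2870 with TMM. Without the filter on low counts, without mitochondrially encoded genes, in the fit of only the 2 groups and with DESeq2, 1 member was higher with G7. Over the fits that left out 1 library, 1 to 2 members were higher with G7 and 1 to 4 were lower with G1 than with G7, and in the wider lists 6 to 14 were higher and 17 to 26 lower with G7. The lowest of these came without control replicate 1, G1 replicate 1 or G7 replicate 1 (members higher with G7), G1 replicate 1 or G7 replicate 2 (members lower with G1 than with G7), G7 replicate 1 or 2 (6 wider genes higher with G7) and control replicate 1 (17 wider genes lower with G7). The cause was not tested.

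Replicate numbers are shared by the groups, and the titles do not say whether an equal number means a shared batch. Deviations from the group means correlated at -0.076 to 0.20 between libraries of the same number (9 pairs). Between libraries of different numbers they correlated at -0.19 to 0.19 (18 pairs). Between G1 and G7 alone, same-number pairs stood at 0.032, 0.14 and 0.20, and different-number pairs at -0.19 to 0.078. With 3 libraries per group, these correlations cannot decide whether equal numbers pair the libraries. With the replicate block, 9 members were higher and 14 lower with G1, 2 higher and 13 lower with G7, and 10 higher and 4 lower with G1 than with G7. For SRP19 and the other genes listed at 0 in every library no change can be stated, and why they are at 0 was not tested.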
